A study of Homo sapiens with 6 samples.

Results

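Small exons, here the exons of 31 to 60 nt, were followed in human HEK293A-TOA cells, a line of embryonic kidney origin, after knockdown of the splicing factor SFSWAP. An exon was taken from the deposited table of skipped exons when its length was in that range, when a library held on average 20 or more junction reads of the event, and when each of the 2 forms, inclusion and skipping, had 5 or more reads over the 6 libraries. This gave 3926 exons in 2629 genes, 9.07% of the 43287 exons of any length that met the same read limits. The table listed 115683 exons in all, of which 10711 were of 31 to 60 nt. Each exon is represented by the 1 splicing event with the most reads. In the siSFSWAP group, SFSWAP was depleted in 3 biological replicates with 2 pooled siRNAs, used at 40 nM for 5 days. In the siNT group, 3 biological replicates received a non-target siRNA, also for 5 days, at a dose that the labels do not give. Neither group was given an inhibitor of O-GlcNAc cycling, and all 6 samples came from the same line. The comparison asked which small exons were kept more or less often in messenger RNA when SFSWAP was depleted.

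Most human exons are recognised as units. The factors that bind the 3′ splice site before an exon and the 5′ splice site after it contact each other across the exon, often with the help of SR proteins bound to enhancers within it. A short exon leaves little room for these contacts and enhancers, and the shortest exons, known as microexons, depend on intronic enhancers and dedicated factors, best known from neurons. SFSWAP, the human relative of the Drosophila suppressor-of-white-apricot protein, is a nuclear protein with an arginine- and serine-rich region like those of the SR family.

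The sequences of 6 small exons are shown because they stand for both directions of change and for the difference in base composition described later. Each line gives 20 bases of the intron before the exon and 6 bases of the intron after it in lower case, and capitals mark the exon. The sequences are from GRCh38, written 5′ to 3′ on the strand of the gene. The first 3 exons, of GTF2IRD1 (chr7:74555418-74555500, plus strand), TAF6 (chr7:100113343-100113425, minus strand) and MRPS18A (chr6:43675196-43675272, minus strand), had higher inclusion in siSFSWAP. The last 3, of SNHG1 (chr11:62854882-62854958, minus strand), DZIP3 (chr3:108646597-108646655, plus strand) and NUP58 (chr13:25319289-25319356, plus strand), had lower inclusion.
GTF2IRD1: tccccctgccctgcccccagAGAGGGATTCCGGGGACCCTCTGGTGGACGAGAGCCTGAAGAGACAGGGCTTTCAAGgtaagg
TAF6: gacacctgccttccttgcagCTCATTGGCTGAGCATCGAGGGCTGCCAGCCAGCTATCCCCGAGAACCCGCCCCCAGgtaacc
MRPS18A: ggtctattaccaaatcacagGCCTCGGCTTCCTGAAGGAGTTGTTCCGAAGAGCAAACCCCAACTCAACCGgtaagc
SNHG1: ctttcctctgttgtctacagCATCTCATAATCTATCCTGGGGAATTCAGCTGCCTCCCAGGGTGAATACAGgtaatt
DZIP3: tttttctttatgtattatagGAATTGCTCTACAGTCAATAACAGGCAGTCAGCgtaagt
NUP58: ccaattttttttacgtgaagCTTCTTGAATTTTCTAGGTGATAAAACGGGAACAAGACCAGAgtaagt
The 3 exons that rose had a GC content of 59.6%, 66.7% and 56.9%, and the 3 that fell had 49%, 45.5% and 38.1%. The gap between these values is partly set by the choice, since the 6 exons were picked to show it. Other called exons overlapped in GC content. Those of GUSB, PLOD1 and ILK rose and had 57.7%, 60% and 47.6%. Those of SMC5 (the form of 49 nt), ZC3H7A and AAGAB fell and had 49%, 39.7% and 48.9%.

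The value for each exon is inclusion, the share of the form with the exon among the inclusion and skipping forms of its event. Inclusion leaves out transcripts that use only other junctions, such as those of overlapping forms, and so is no share of all transcripts. It was computed in each library from the reads on inclusion and skipping junctions, each divided by the effective length of its form, which was 130 to 159 nt for inclusion and 99 nt for skipping. The tables list the 3 libraries of a group without naming them, so they are called a, b and c in list order, which does not pair libraries across the groups. The skipped exon table held 19515010 to 31980079 junction reads in the siSFSWAP libraries and 20820210 to 55274283 in the siNT libraries, and the median small exon had 61 to 102 reads in siSFSWAP libraries and 67.5 to 179 in siNT libraries. Spliced reads of SFSWAP itself were 30.3 ± 7.71 CPM in siSFSWAP and 82.3 ± 3.79 CPM in siNT (SD, n = 3 each), a log2 change of -1.46 ± 0.16 (SE, adjusted p 0.000336 by limma over 10744 genes). Of the markers checked for the line, KRT8, KRT18, VIM and CDH2 had 22.0 to 373.7 CPM in every library, and the fibroblast gene COL1A1 had at most 0.515 CPM. The kidney lineage genes PAX2 and LHX1 and the remaining markers were also looked up, but no value was obtained for them. The kidney lineage was therefore not checked by them. Library a of siNT, the deepest of the 6, lay somewhat closer to siSFSWAP library a than to the other siNT libraries. Differences are given in points, where a point is 1 percent of inclusion. Over the 550 small exons with a mean siNT inclusion of 20% to 80%, its median absolute difference was 9.15 points to siNT library b and 10.5 points to siNT library c. It was 8.19 points to siSFSWAP library a, and siNT libraries b and c differed from each other by 8.24 points. The median inclusion over all small exons ran from 79.0% to 84.3% in the siSFSWAP libraries and from 81.2% to 87.1% in the siNT libraries, so the groups overlapped.

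Few small exons changed past both thresholds, and more of them were lower than higher. An exon was called when its adjusted p was at most 0.05 in a quasi-binomial F test over all 48100 tested events (Benjamini-Hochberg) and its mean inclusion changed by at least 20 points. Of the 3926 small exons, 45 in 42 genes had higher inclusion in siSFSWAP, which is 1.15%, where 1.31% of all tested exons did. Lower inclusion was called for 69 small exons in 61 genes, or 1.76%, where 0.698% of all tested exons were lower. No gene had small exons in both directions. Small exons thus made up 7.91% of all exons called higher and 22.8% of all exons called lower. Called changes had a median of 28.4 points upward and -29.2 points downward, and ran up to 48.8 and down to -56.1 points. In all 45 higher exons, and in 67 of the 69 lower exons, every siSFSWAP library lay on the same side of every siNT library. Over all small exons such a separation was found upward in 393 (10%) and downward in 663 (16.9%), against 13.7% upward and 9.42% downward among all tested exons. With a change of at least 0.1 in inclusion in place of 20 points, 60 were higher and 149 lower, beside 2.18% and 1.45% of all tested exons. By the adjusted p alone, 84 small exons were higher and 238 lower (2.14% and 6.06%), beside 3.14% and 2.33% of all tested exons. The median change over all small exons was close to 0, at -0.118 points, with a middle range of -2.83 to 1.8 points, and over all tested exons it was 0.242 points.

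**Figure D1:**
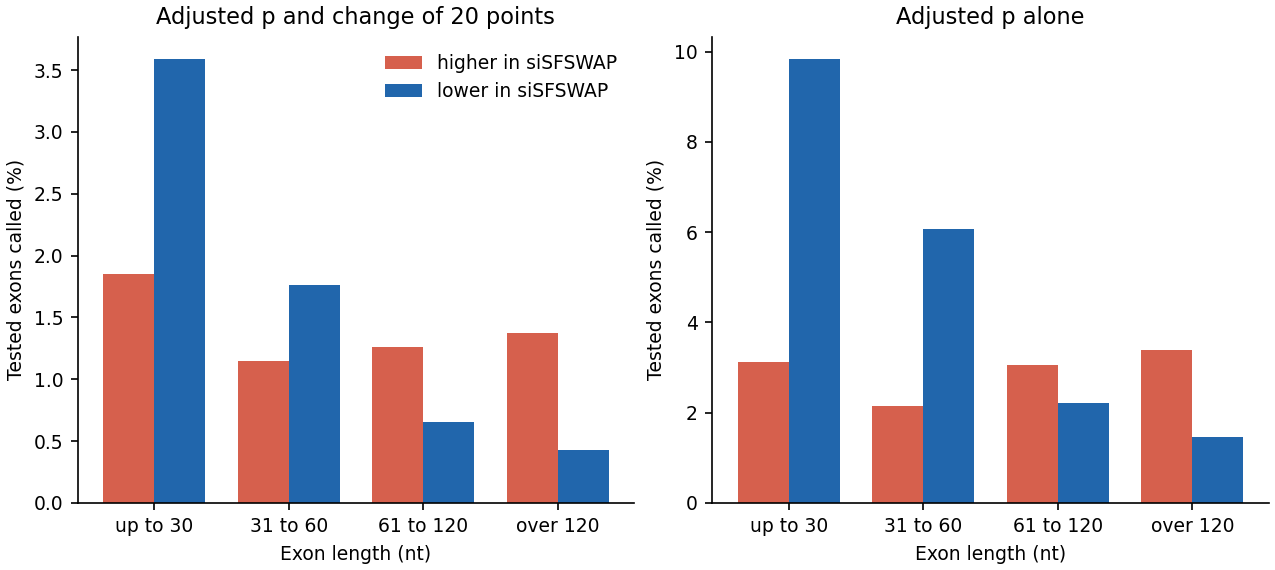
Share of tested exons called higher or lower in siSFSWAP (vertical axis, percent) by exon length in nt (horizontal axis), at an adjusted p of at most 0.05 with a change of at least 20 points (left) and by the adjusted p alone (right). For exons of 31 to 60 nt the left panel shows 1.15% higher and 1.76% lower calls, and the right panel 2.14% and 6.06%.

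The balance of the calls differed between length classes. Among the 864 tested exons of up to 30 nt, 16 were higher and 31 lower (1.85% and 3.59%). Among the 16485 exons of 61 to 120 nt the counts were 207 and 108 (1.26% and 0.655%), and among the 22012 longer exons they were 301 and 94 (1.37% and 0.427%). Within the small exons, lower calls took 20 of 843 exons of 31 to 40 nt, 23 of 1299 exons of 41 to 50 nt and 26 of 1784 exons of 51 to 60 nt, while higher calls took 7, 14 and 24. At the edges of the range, 0 of 69 exons of 31 nt were higher and 4 lower, against 1 higher and 0 lower of 83 exons of 30 nt. Of 242 exons of 60 nt 3 were higher and 3 lower, and of 184 exons of 61 nt 3 were higher and 2 lower. No test of these differences between classes was run.

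Both counts moved with single libraries. Without siNT library a, 72 small exons were higher and 54 lower (2.45% and 0.561% of all tested exons), so the order of the counts turned round. Without any 1 of the other 5 libraries, 5 to 11 were higher and 20 to 57 lower, the fewest lower ones without siSFSWAP library c. The shares of all tested exons were not counted for these 5 fits, so whether the fall is particular to small exons cannot be read from them. Of the 45 higher exons 3 kept their call in all 6 such fits, and of the 69 lower exons 20 did. Library a of siNT had the highest inclusion of the 3 siNT libraries in 39 of the 45 higher exons and in 30 of the 69 lower exons. Between library a of siSFSWAP and library a of siNT, which are matched by list order only, the called exons changed by a median of 18.8 and -24.0 points. Between the libraries b and c of each group the medians were 34.6 and -32.2 points. The direction was the called one in all 45 and all 69 exons. These exons were called on the same libraries, so that direction was largely set by the choice and is no further evidence. A test that gave each library the same weight, limma on the log2 odds, called 0 small exons higher and 6 lower. It had 130 and 234 at an unadjusted p under 0.05, and 0.0139% and 0.0554% of all tested exons were called. Its odds were taken from counts divided by effective length, with 0.5 added to each. At the median depth this 0.5 is not small beside such values. It draws the odds toward even, more so in shallower libraries, so these counts also depend on depth. Without library a of both groups, which leaves 2 libraries against 2, the quasi-binomial test called no small exon in either direction, with 260 higher and 413 lower at an unadjusted p under 0.05, and 0.0% of all tested exons in either direction.

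Small exons of every usual level of inclusion were among those tested. In siNT, 1014 had a mean inclusion under 5%, 320 of 5% to 20%, 550 of 20% to 80%, 703 of 80% to 95% and 1339 of 95% or more. The threshold of 20 points allows no higher call above 80% and no lower call below 20%, so the levels of the called exons are partly set by it. Of the 45 higher exons, 42 came from 20% to 80% and 3 from 5% to 20%, and of the 569 higher calls among all tested exons 514 came from 20% to 80%. Of the 69 lower exons, 28 came from 20% to 80%, 26 from 80% to 95% and 15 from 95% or more, and the 302 lower calls among all tested exons split into 122, 107 and 73. Among small exons with a mean siNT inclusion of at least 95%, 133 of 1339 had lower inclusion by the adjusted p alone (9.93%), beside 3.65% of all tested exons of that level. Their median change was -1.04 points, beside -0.218 points in all such exons, and downward separation of the groups was found in 28.9% of them, beside 14.7%. In the range of 20% to 80%, 51 of 550 small exons were lower by the adjusted p alone (9.27%) and 46 higher (8.36%), beside 3.71% and 12.4% of all tested exons of that range. Among those with a mean siNT inclusion under 5% no small exon was called in either direction, by the quasi-binomial test. Of all 11028 tested exons of that level 4 were called higher and 0 lower. By the adjusted p alone 15 small exons were higher and 1 lower (1.48% and 0.0986%), beside 2.09% and 0.118% of all tested exons of that level.

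**Figure D2:**
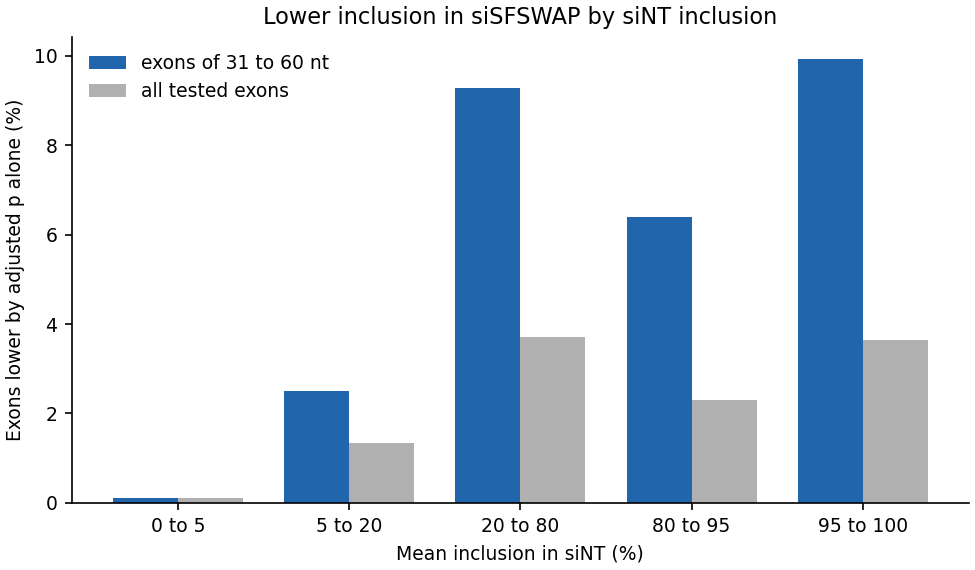
Share of exons with lower inclusion in siSFSWAP by the adjusted p alone (vertical axis, percent) in classes of mean siNT inclusion (horizontal axis, percent), for exons of 31 to 60 nt (blue) and all tested exons (grey). In the class of 95% or more the shares were 9.93% and 3.65%.

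The exon with the most reads among those that rose was in HNRNPH1, which encodes a nuclear protein that binds G-rich RNA and regulates splicing. Its 54-nt exon (chromosome 5, 179616869 to 179616922) is not listed with these ends in GENCODE 44. The exon had 83.5%, 82.6% and 86.6% inclusion in siSFSWAP libraries a, b and c, against 69.9%, 58.2% and 58.4% in siNT, so the groups did not overlap. Its change was 22.1 points with a standard error of 4.05 (adjusted p 1.33e-05, 558 to 1738 reads per library). TAF6 encodes a subunit of the general transcription factor TFIID. Its 57-nt exon, a coding exon numbered 5 of 15 (chromosome 7, 100113349 to 100113405), had 90.4%, 89.3% and 94.0% in siSFSWAP and 69.8%, 55.2% and 58.5% in siNT. The change was 30.1 points with a standard error of 4.64 (adjusted p 0.000114). These 2 exons were called whichever library was left out.

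GTF2IRD1, a transcription factor gene, had the largest rise among the well-read exons. Its coding exon 19 of 27 (chromosome 7, 74555438 to 74555494) had 86.0%, 83.2% and 91.3% in siSFSWAP and 59.2%, 52.6% and 44.7% in siNT. The change of 34.7 points had a standard error of 4.82 (adjusted p 0.00111), and only leaving out siSFSWAP library c ended the call (adjusted p 0.0785). MRPS18A, which encodes a protein of the mitochondrial ribosome, had 92.0%, 86.4% and 89.5% in siSFSWAP and 70.2%, 52.6% and 54.2% in siNT for a 51-nt exon (chromosome 6, 43675202 to 43675252), with an adjusted p of 0.000471. Its call was lost without siSFSWAP library a or c, at an adjusted p of up to 0.0659.

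The other exons named for their rise lay in genes of varied function. GUSB encodes a lysosomal glucuronidase, IMPDH1 an enzyme of guanine nucleotide synthesis, SAT2 an acetyltransferase of the spermidine acetyltransferase family, PLOD1 a collagen lysyl hydroxylase and COL9A3 a chain of collagen IX. ILK encodes integrin-linked kinase, PPP1R12C a regulatory subunit of myosin phosphatase, RPUSD1 a protein of the pseudouridine synthase family and ARFGAP1 an activator of GTP hydrolysis by ARF1. Their changes ran from 26.7 points in ARFGAP1 to 32.2 points in GUSB. The 55-nt exon of PLOD1 (chromosome 1, 11964246 to 11964300) had 98.2%, 96.6% and 97.1% in siSFSWAP and 84.4%, 67.1% and 48.8% in siNT, which shows the wide siNT spread of this group. In each of these 9 exons the highest siNT library was library a, and each call was lost without 4 or 5 of the libraries, with adjusted p of up to 0.391 in ILK. RECQL4, a DNA helicase gene on chromosome 8, had 100%, 95.6% and 89.1% in siSFSWAP and 70.3%, 64.5% and 45% in siNT, and its call held only without siNT library a. The highest change of all, 48.8 points, belonged to a 51-nt exon of the cell cycle phosphatase gene CDC25C, which was singled out after its values were seen and had a mean of 23.7 reads.

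**Figure D3:**
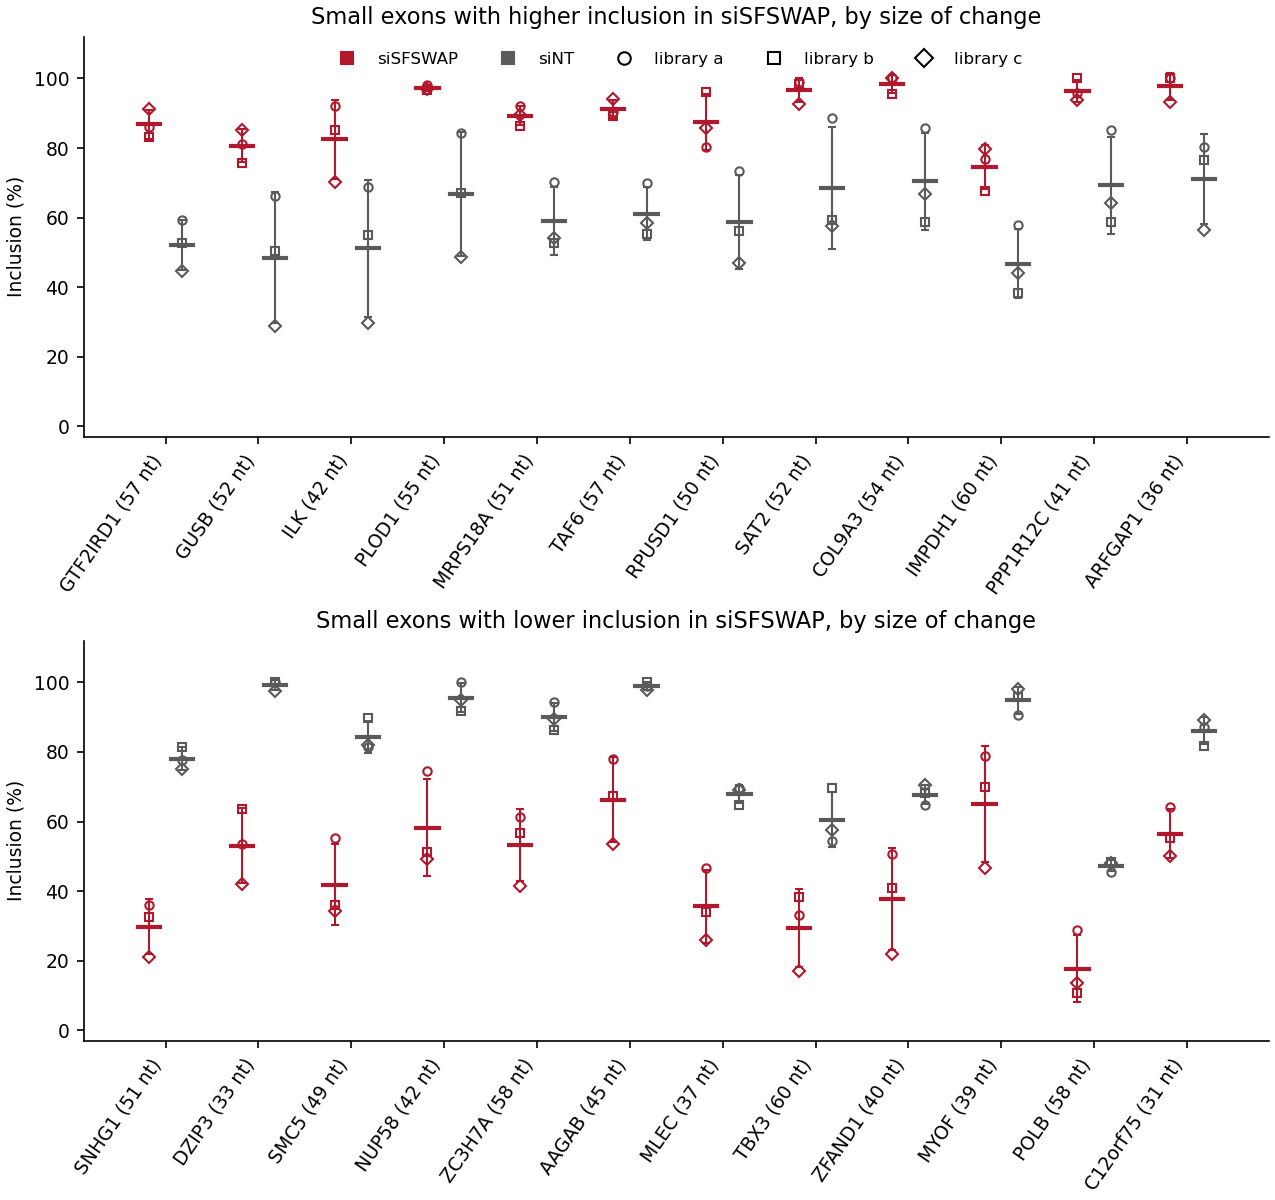
Inclusion in percent of the 12 small exons with the largest rise (top) and the 12 with the largest fall (bottom) among exons averaging 50 or more reads, 1 per gene, in siSFSWAP (red) and siNT (grey). Horizontal marks are means, error bars are SD (n = 3), and each symbol is 1 library. The 57-nt exon of TAF6 lies at 91.3% in siSFSWAP and 61.1% in siNT, and the 33-nt exon of DZIP3 at 53.0% in siSFSWAP and 99.2% in siNT.

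The lower exons included 6 small exons of SNHG1, all called lower. SNHG1 is a host gene of small nucleolar RNAs, which are processed from its introns, and its spliced RNA is degraded through nonsense-mediated decay. Exon 4 of 11 (chromosome 11, 62854888 to 62854938, 51 nt) had 35.9%, 32.4% and 20.9% in siSFSWAP and 77.7%, 81.5% and 75.1% in siNT (adjusted p 6.35e-09). The other 5 are forms of exon 6 that overlap each other, 4 of them with the same 5′ splice site, and they share 1 skipping junction, so they are not separate events. The best-read of them, of 47 nt (62854018 to 62854064), had 65.4%, 63.8% and 58.5% in siSFSWAP and 94.3%, 91.9% and 89.6% in siNT (adjusted p 2.26e-07). The forms of 41, 44, 45 and 53 nt changed by -43.7, -40.2, -46.9 and -36.9 points. All 6 calls held whichever library was left out, with adjusted p of at most 0.0156.

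Neighbouring small exons of the same transcript stayed near complete inclusion. Exon 7 of SNHG1, in forms of 33 and 49 nt, averaged 99.1% ± 0.765 and 98.3% ± 1.52 in siSFSWAP and was kept in all siNT reads (SD, n = 3). Exon 8, with forms of 39 and 54 nt, averaged 99.4% ± 0.371 and 98.9% ± 0.707 in siSFSWAP and was also kept in all siNT reads. None of these 4 forms of SNHG1 passed, with adjusted p of 0.118 to 0.166. They were described after their values were seen.

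**Figure D4:**
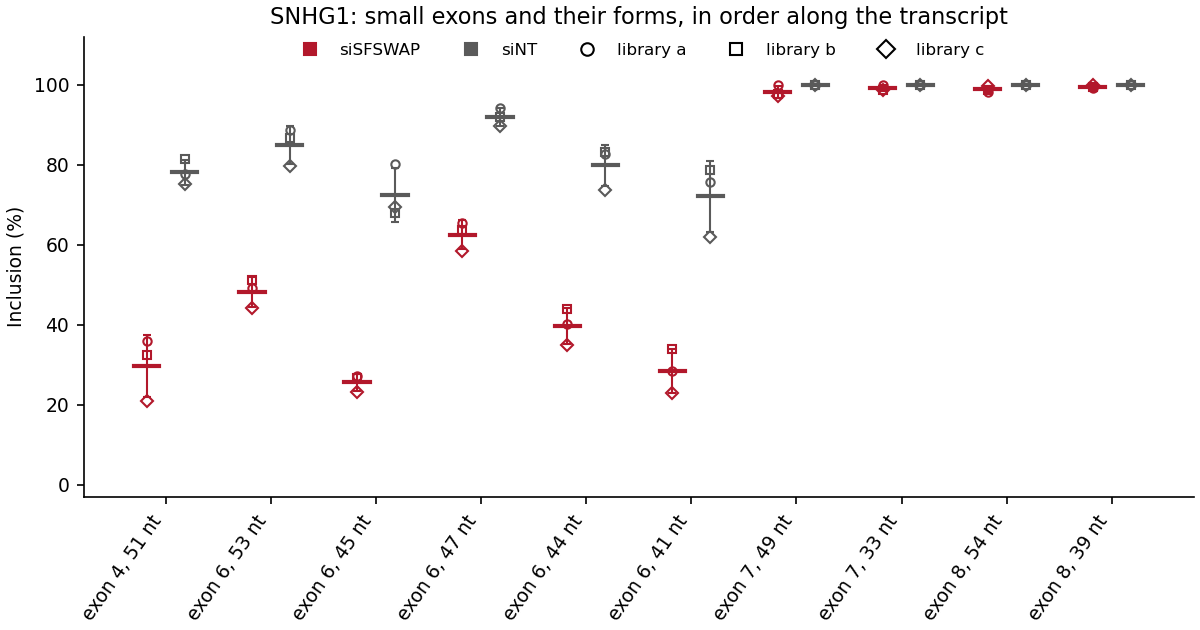
Inclusion in percent of the 10 small exon forms of SNHG1 in siSFSWAP (red) and siNT (grey), ordered along the transcript. Exon numbers are those of the GENCODE 44 exon that each form matches or overlaps, horizontal marks are means, error bars are SD (n = 3), and each symbol is 1 library. Exon 4 lies at 29.8% in siSFSWAP and 78.1% in siNT, while the forms of exons 7 and 8 lie at 98.3% or more in both groups.

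The call with the most reads among all small exons was in PCBP2, which encodes a poly(C)-binding protein of the hnRNP group. Coding exon 12 of 15 of PCBP2 (chromosome 12, 53467805 to 53467843, 39 nt) had 45.6%, 43.5% and 39.4% in siSFSWAP and 67.2%, 72.9% and 73.7% in siNT, with 1368 to 4387 reads per library. The change was -28.4 points with a standard error of 2.73 (adjusted p 5.85e-11). PNISR encodes a nuclear protein with an arginine- and serine-rich region. Its coding exon 10 of 12 (chromosome 6, 99403829 to 99403882, 54 nt) had 58.2%, 56.0% and 52.0% in siSFSWAP and 84.6%, 75.9% and 80.6% in siNT (adjusted p 1.65e-05). Both calls held without any 1 library, and the libraries of each group lay close together.

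Exons with high siNT inclusion were also among those that fell. DZIP3 encodes a ubiquitin ligase that binds RNA. Its coding exon 15 of 33 (chromosome 3, 108646617 to 108646649) had 53.5%, 63.6% and 42.0% in siSFSWAP and 100%, 100% and 97.5% in siNT (adjusted p 8.46e-07). AAGAB encodes a protein that binds the adaptins of clathrin adaptor complexes. A 45-nt exon of it (chromosome 15, 67203548 to 67203592) had 78.0%, 67.3% and 53.6% in siSFSWAP and 99.1%, 100% and 97.7% in siNT (adjusted p 4.66e-05). NUP58, a gene of the nuclear pore, had 74.4%, 51.3% and 49.1% in siSFSWAP and 100%, 91.8% and 95% in siNT for a 42-nt exon (chromosome 13, 25319309 to 25319350, adjusted p 0.00145). The DZIP3 and AAGAB calls held whichever library was left out, and the NUP58 call was lost without siSFSWAP library c (adjusted p 0.103).

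Exons of genes that repair DNA formed another group. SMC5 encodes a subunit of the SMC5/6 complex. It had 2 called forms with the same start on chromosome 9 (70346605), of 49 nt (ending at 70346653) and of 45 nt (70346649), the shorter one being coding exon 19 of 25. The SMC5 form of 49 nt had 55.3%, 36.1% and 34.2% in siSFSWAP and 81.4%, 89.7% and 81.9% in siNT, and the form of 45 nt had 73.8%, 62.1% and 59.2% in siSFSWAP and 89.5%, 93.5% and 92.1% in siNT. Exon 2 of 14 of POLB, the polymerase of base excision repair, had 28.7%, 10.8% and 13.6% in siSFSWAP and 45.4%, 48.4% and 48.0% in siNT (chromosome 8, 42339012 to 42339069, 58 nt, adjusted p 0.000629). FANCL, a ubiquitin ligase gene of the Fanconi anaemia pathway, changed by -37.5 points (adjusted p 0.00595) in an exon listed only for transcripts subject to nonsense-mediated decay. WRN, a helicase gene, changed by -28.4 points (adjusted p 0.0326). Each of these calls was lost without siSFSWAP library c, and those of FANCL and WRN without other libraries too. The DNA repair and replication list thus had 5 of its 48 small exons lower, with the 2 overlapping forms of SMC5 counted separately. It had 1 higher, RECQL4, and a median change of -1.38 points. Over all 799 tested exons of these genes, 9 were lower and 10 higher.

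Several lower exons lay in genes of chromatin, organelles and cell contacts. Coding exon 11 of 31 of the acetyltransferase gene CREBBP (chromosome 16, 3777613 to 3777657, 45 nt) had 69.9%, 62.6% and 60.1% in siSFSWAP and 84.4%, 84.0% and 89.5% in siNT (adjusted p 1.67e-05). Without siSFSWAP library c its change was -19.7 points, just short of the threshold. Coding exon 16 of 20 of DNM1L, the dynamin of mitochondrial fission, had 26.6%, 30.6% and 33.3% in siSFSWAP and 54.9%, 52.1% and 52.1% in siNT (chromosome 12, 32738264 to 32738296, 33 nt, adjusted p 0.000142), and this call held in every leave-one-out fit. IFT88, which acts in transport within cilia, had 44.2%, 19.6% and 21.4% in siSFSWAP and 80.4%, 80.9% and 79.2% in siNT for coding exon 4 of 26 (chromosome 13, 20589811 to 20589867, 57 nt, 14 to 67 reads per library, adjusted p 0.00066), lost without siSFSWAP library c (adjusted p 0.0653). BBS4 of the BBSome, NRCAM, a cell adhesion gene, and the ubiquitin ligase gene SMURF2 changed by -24.4, -29.9 and -27.6 points, and each call was lost without 4 or more of the libraries. In SETD2, the gene of a histone methyltransferase, 2 overlapping forms were called with means of 20.8 and 20.7 reads, but 1 siSFSWAP library kept the exon in all reads, as all siNT libraries did.

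The remaining named exons fell by similar amounts. ZC3H7A encodes a zinc finger protein that binds RNA. It had 3 overlapping small forms on chromosome 16, of which that of 58 nt (11776320 to 11776377) had 61.2%, 56.8% and 41.5% in siSFSWAP and 94.5%, 86.3% and 89.4% in siNT (adjusted p 0.000602). The best-read form of ZC3H7A, the annotated coding exon of 39 nt, differed by -17.1 points and so was not called, although its adjusted p was 0.000798. C12orf75 had 64.1%, 55.4% and 50.1% in siSFSWAP and 87.1%, 81.8% and 89.3% in siNT for a 31-nt exon (chromosome 12, 105365812 to 105365842, adjusted p 0.000788). The ZC3H7A and C12orf75 calls held in every leave-one-out fit. MLEC, which encodes a lectin of the endoplasmic reticulum, TBX3, a T-box transcription factor gene, ZFAND1, which encodes a zinc finger protein, and MYOF, a gene of membrane repair, changed by -32.4, -31.0, -30.0 and -29.8 points. Their calls were lost without siSFSWAP library c, and those of TBX3, ZFAND1 and MYOF without at least 1 other library.

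Among the 70 called exons that no naming rule picked, 1 higher and 7 lower exons kept their call whichever library was left out. They are named here after their values were seen. UCHL1 encodes a deubiquitinating enzyme that is abundant in neurons. Its coding exon 6 of 9 (chromosome 4, 41261876 to 41261923, 48 nt) had 79.9%, 74.3% and 72.3% in siSFSWAP and 98.8%, 98.0% and 96.9% in siNT, with 1102 to 4381 reads per library (adjusted p 1.37e-12). Its reads and those of PCBP2 were the most numerous of all called small exons. LARS1, the gene of cytoplasmic leucyl-tRNA synthetase, had 81.1%, 74.2% and 67.6% in siSFSWAP and 98.3%, 96.2% and 100% in siNT for coding exon 13 of 32 (54 nt, adjusted p 1.97e-06). RBM38, which encodes an RNA-binding protein, had 65.6%, 57.5% and 54.6% in siSFSWAP and 87.2%, 78.2% and 84.3% in siNT for coding exon 3 of 4 (55 nt, adjusted p 3.29e-05). HDAC1, a histone deacetylase gene that is in none of the lists, had 77.1%, 64.4% and 61.4% in siSFSWAP and 98.4%, 93.6% and 90.7% in siNT for a 46-nt exon (adjusted p 0.000184). The groups did not overlap in any of these exons.

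The remaining 3 lower exons of this kind rested on fewer reads. GTF2H2C had 5.5%, 2.68% and 4.56% in siSFSWAP and 55.1%, 48.5% and 46.8% in siNT (51 nt, mean of 46 reads, adjusted p 2.85e-06). The gene has near-identical copies, so the assignment of its reads is uncertain. PHB2, which encodes a prohibitin of the inner mitochondrial membrane, had the lowest change of all, -56.1 points, in a 31-nt exon with a mean of 33.8 reads, at 60.4%, 29.3% and 29.9% in siSFSWAP and 100%, 93.8% and 94.1% in siNT. PLCB4, a phospholipase C gene, had 49.3%, 39.6% and 35.3% in siSFSWAP and 97.3%, 83.6% and 93.3% in siNT for coding exon 39 of 40 (adjusted p 0.00051). The 1 higher exon was a 35-nt exon of METTL26, with 68.6%, 65.3% and 65.8% in siSFSWAP and 46.6%, 45.4% and 39.7% in siNT (adjusted p 0.00139).

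Abundant small exons with intermediate inclusion were often measured well enough to show small changes. Coding exon 13 of 16 of HNRNPM, an hnRNP gene, averaged 67.5% ± 3.10 in siSFSWAP and 78.7% ± 1.76 in siNT (SD, n = 3 each, 54 nt, quasi-binomial adjusted p 2.74e-05), a change of -11.2 points. Exon 14 of 18 of APLP2, a gene of the amyloid precursor family, averaged 17.1% ± 0.981 in siSFSWAP and 26.2% ± 3.96 in siNT (36 nt, quasi-binomial adjusted p 0.0012). Exon 3 of 13 of the G protein gene GNAS averaged 62.2% ± 1.67 in siSFSWAP and 68.5% ± 2.09 in siNT (45 nt, quasi-binomial adjusted p 0.0102). These 3 fell short of 20 points and were not called. The adjusted p of APLP2 and GNAS reached 0.123 and 0.168 with 1 library left out, while that of HNRNPM stayed at or below 0.0157. Exons of SNHG29, a small nucleolar RNA host gene, of the glycolytic gene ALDOA and a further exon of HNRNPH1, with means of 1140 to 1740 reads, had differences of -4.66, 3.89 and 3.69 points and did not pass (adjusted p 0.768, 0.16 and 0.248). The HNRNPH1 exon in question is exon 13 of 14, so 1 of its 2 small exons was called and the other was not.

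Of the genes the study discusses, SF3B1, SF1, ARGLU1 and IFRD2 had small exons, and none was called. The SF3B1, SF1 and ARGLU1 exons were rare, with 0.363%, 0.782% and 2.83% mean inclusion in siSFSWAP and 0.585%, 0.407% and 1.17% in siNT, and no difference was detectable with these reads (adjusted p 0.8, 0.577 and 0.504). Exon 6 of 12 of IFRD2 (51 nt) had 92.6%, 100% and 100% in siSFSWAP and 87.9%, 69.5% and 72.5% in siNT, with 11 to 49 reads per library and an adjusted p of 0.174. OGT, OGA, SFSWAP, FN1, MAPT, PTPRC and GFUS had no exon among the 3926.

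Grouped by function, most lists held few calls. The lists were drawn up with earlier results of these data known, so they are no independent evidence of a direction. Among the 774 small exons of the 12 lists, 4 were higher and 22 lower, beside 41 and 47 of the 3152 small exons in no list. Overlapping forms count separately in both sets. In the lists SNHG1 had 6 lower forms at 2 places, and SMC5 and SETD2 each had 2 at 1 place. The list of nonsense-mediated decay and RNA decay had 6 of 52 small exons lower, all in SNHG1, which is a target of that decay and not a factor of it, and 0 higher, with a median change of -0.819 points. Over all 368 tested exons of these genes 14 were lower and 2 higher. In centrosome, cilium and kinetochore genes 3 of 70 were lower and 0 higher (median -0.956 points), beside 8 lower and 4 higher of all 724 exons. These were IFT88, BBS4 and DZIP3, the last better known as a ubiquitin ligase. Chromatin and transcription regulators had 3 of 114 lower, CREBBP and the 2 overlapping forms of SETD2, and 1 higher (median -0.0935 points), beside 9 and 8 of all 1069 exons. SR and SR-related proteins had 1 of 52 lower, PNISR, beside 4 lower and 3 higher of all 398 exons. For hnRNP and other RNA-binding regulators 1 of 73 was lower and 1 higher, PCBP2 and HNRNPH1, beside 13 lower and 3 higher of all 609 exons. Vesicle traffic had 1 of 99 in each direction, DNM1L lower and ARFGAP1 higher, beside 5 lower and 10 higher of 910. Cytoskeleton and adhesion had 1 of 83 lower, beside 5 lower and 6 higher of 769, and ubiquitin and proteasome 1 of 102 lower, beside 8 lower and 0 higher of 1154. The core spliceosome, splicing kinases and small GTPase regulators had only 42, 4 and 38 small exons, too few to read much from 0 calls in either direction by the quasi-binomial test, with 4, 1 and 3 exons past the adjusted p alone. Over all exons of these genes there were 6 lower and 1 higher of 371, 3 lower and 1 higher of 95, and 4 in each direction of 427.

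The called directions differed in base composition, which is given without a test. The 45 higher exons had a median GC content of 60% and the 69 lower exons one of 44.4%, beside 46.6% in the 3812 small exons not called. The introns before and after had medians of 62.7% and 58.7% around higher exons and of 37.7% and 37.6% around lower exons. These introns were also short around higher exons, with medians of 277 and 353 nt, against 1190 and 1170 nt around lower exons and 1690 and 1700 nt around small exons not called. Of the 187 small exons with at least 65% GC, 10 were higher (5.35%) and 1 lower (0.535%), beside 5.52% and 0.256% of all tested exons of that class. Of the 1271 with 35% to 45% GC, 1 was higher (0.0787%) and 30 lower (2.36%), beside 0.118% and 1.23% of all such exons. Exons of over 60 nt showed similar medians, 61.3% in 508 higher exons and 42.2% in 202 lower exons. The introns before and after these longer exons had median GC contents of 60.3% and 58.2% around higher ones and of 40.5% and 37.8% around lower ones. Their median lengths were 426 and 309 nt around higher ones and 1920 and 806 nt around lower ones.

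The relation to GC content was found across small exons in general. Over the 550 with siNT inclusion of 20% to 80%, Spearman's rho between exon GC content and change was 0.341 (Pearson's r 0.339), and over the 480 of them not called it was 0.248. Over all tested exons of that range rho was 0.453, so the relation is not particular to small exons. These are descriptions over exons that share the 6 libraries and, in part, a gene, with no test. Between library a of siSFSWAP and library a of siNT rho was 0.218, and between the libraries b and c of each group 0.349. Within siNT, the difference of library a from libraries b and c had a rho of 0.297 with GC content (0.404 over all tested exons of that range). The relation was thus also found between control libraries, and within siSFSWAP the like difference gave -0.0192. The part of this library difference in the change was not tested. The rho between exon length within the range and the change was 0.00292.

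**Figure D5:**
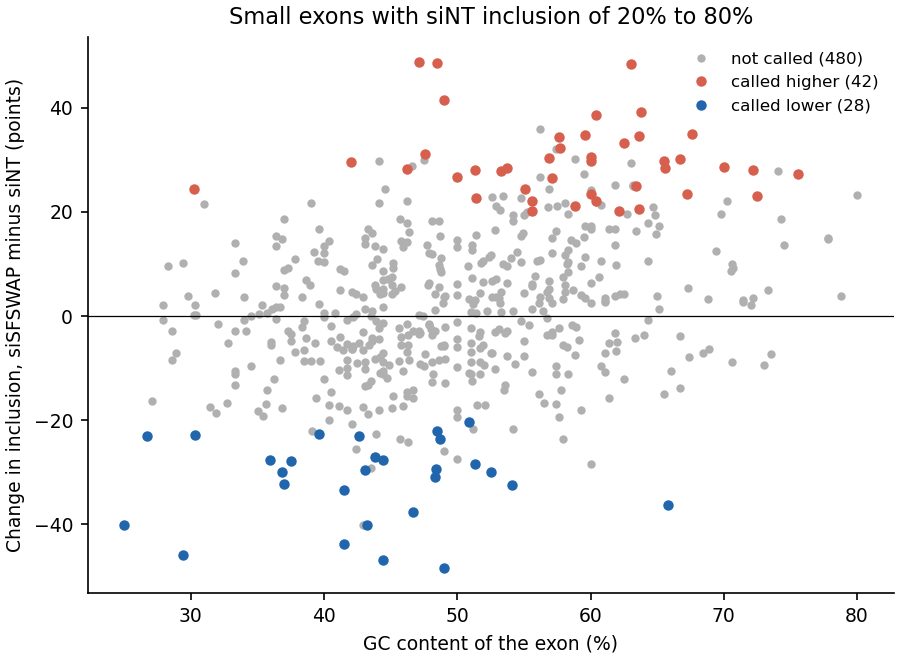
Change in inclusion, siSFSWAP minus siNT in points (vertical axis), against GC content of the exon in percent (horizontal axis) for the 550 small exons with siNT inclusion of 20% to 80%. Colours mark the 42 called higher, the 28 called lower and the 480 not called, and Spearman's rho was 0.341.

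Other sequence features were counted without a test. Lengths divisible by 3, which leave a reading frame intact, were found in 20 of 45 higher exons (44.4%), 34 of 69 lower exons (49.3%) and 44.2% of those not called, beside 39.0% of all tested exons. Among small exons not called with siNT inclusion of 20% to 80% the share was 53.3%. The 5′ splice site letters GTAAGT directly after the exon, searched on the strand of the gene, followed 3 higher exons (6.67%) and 13 lower exons (18.8%), beside 17.3% of all small exons and 10.6% of all tested exons. They follow the exons of DZIP3 and NUP58 shown above. The letters GAAGAA within the exon occurred in 2 higher exons and 6 lower exons (4.44% and 8.7%), beside 7.21% of all small exons and 12.4% of all tested exons. The letters TGCATG in the 250 nt of intron after the exon, the motif bound by RBFOX proteins, occurred after 0 higher and 4 lower exons (5.8%), beside 8.13% of small exons. A match of letters is no evidence of binding.

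Many members are alternative forms. Of the 3926 small exons, 1426 (36.3%) are not listed with these 2 ends in GENCODE 44, 1835 (46.7%) lie within coding sequence, 167 in a 5′ UTR, 137 across a coding boundary, 207 only in transcripts subject to nonsense-mediated decay and 154 in non-coding transcripts. Coding exons were 19 of the higher and 37 of the lower exons, and 23 of the higher exons (51.1%) and 21 of the lower exons (30.4%) are not listed. The unlisted higher exons include those of HNRNPH1, MRPS18A, GUSB, PLOD1, ILK, RPUSD1, ARFGAP1, RECQL4 and METTL26. The unlisted lower ones include those of AAGAB, NUP58, MLEC, C12orf75, HDAC1, PHB2, WRN and SETD2. They also include the SMC5 form of 49 nt, the ZC3H7A form of 58 nt and the SNHG1 forms of 45 and 53 nt. In all, 746 members overlap another member, mostly with a shared splice site. Counted without overlap, the higher exons fell on 42 places and the lower exons on 62, since PLOD1, SAT2, SLC25A10, SMC5, SETD2 and ZC3H7A had 2 overlapping called forms each and SNHG1 had 6 at 2 places.

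Introns next to small exons were compared where the retained intron table tested them. Of the 10155 introns tested there, 1.61% were called lower and 0.148% higher. The intron after the RECQL4 exon was called lower, with a retention of 10.7% ± 1.4 in siSFSWAP and 38.6% ± 12.7 in siNT (SD, n = 3 each, quasi-binomial adjusted p 0.00841). With each intron counted once, 12 of 15 introns after higher exons and 12 of 13 before them had a lower mean in siSFSWAP, of which 2 and 1 were called lower. Next to small exons that were not called, 222 of 357 introns after (62.2%) and 162 of 284 before (57.0%) also had a lower mean. Next to lower exons, 1 of 3 introns after and 2 of 6 before had a lower mean, and none was called by the quasi-binomial test. For called exons of SNHG1, HNRNPH1, ILK, TAF6 and POMGNT1 the whole interval that holds the exon is listed as an intron. It has the same skipping junction as the exon. The intervals of ILK, TAF6 and POMGNT1 were not called by the quasi-binomial test. Inclusion of the interval was 35.1% ± 4.49 in siSFSWAP and 82.0% ± 6.2 in siNT around SNHG1 exon 6. Around the HNRNPH1 exon it was 45.9% ± 4.39 in siSFSWAP and 13.5% ± 4.72 in siNT. Exon and interval moved the same way in all of these genes and are not separate observations.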

How the data were processed

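Polyadenylated RNA of the 6 cultures was sequenced from 1 end. Per the labels and the study's methods, the authors used cutadapt 1.9.1 for trimming, STAR 2.7 for alignment (GRCh38) and rMATS for junction reads. The sources used here do not say whether the libraries keep strand. The deposited tables hold whole-number junction read counts of each form, not normalised, 3 libraries to a cell, and effective lengths in nt. Which numbered group is siNT was taken from the study's definition of the difference in inclusion. Their p-values, FDR and inclusion differences are the authors' own comparison and were not used.

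Events with a mean of at least 20 reads, 5 reads of each form and reads in at least 2 libraries of each group entered a two-sided quasi-binomial F test. Dispersions were moderated with limma 3.58.1 on a trend with depth, with a floor of 1. Benjamini-Hochberg adjustment ran over all 48100 events, and the test was tried on simulated data. Replicates are separate cultures per the labels, so p-values measure the spread between cultures of 1 line.

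Reads of SFSWAP and of the markers were summed over exons per gene and given as CPM of the table's total. SFSWAP was tested with limma on log2(CPM + 0.5). These sums move with splicing and are not gene expression.

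Sequence, intron GC content and annotation came from GRCh38 and GENCODE 44, and 99.0% of small exons followed AG and 97.2% preceded GT there. Exons were named by rule: the 12 largest called changes in each direction with at least 50 mean reads and groups not overlapping, 1 per gene, called exons in 12 gene lists, the 6 uncalled exons of intermediate siNT inclusion with most reads, and genes the study discusses. The members and lists were chosen with earlier results of these data known. Intervals are not given, since the replicates carry the error and read counts cover counting error only.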

Additional observations from a re-analysis of the deposited data

How the results depend on the processing

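The counts of called small exons moved with several choices. With a mean of at least 50 reads, 25 were higher and 45 lower, of 2830 small exons tested. The shares of all tested exons were not counted for this filter, so whether the fall is particular to small exons cannot be read from it. By the adjusted p alone 84 were higher and 238 lower, and with a change threshold of 0.1 in inclusion 149 were lower. With limma on the log2 odds, where the 0.5 added to length-divided counts weighs on the odds, the counts were 0 and 6. In that fit 364 had an unadjusted p under 0.05. When 1 library was left out, 5 to 72 were higher and 20 to 57 lower. Without library a of both groups, an alternative chosen after seeing the data, the quasi-binomial test called 0 higher and 0 lower, with 673 small exons at an unadjusted p under 0.05, and 0 of all 43287 exons in either direction. The other filters, the dispersion settings, summed events and pooled inclusion left both counts within 1.5 times. The median change stayed between -0.247 and -0.0407 points under the alternatives run, and the SFSWAP log2 change between -1.58 and -1.23 with adjusted p of at most 0.00286. Of the 44 named called exons, 15 kept their call whichever library was left out, and none changed direction under any alternative run. In nearly all of them the groups did not overlap, so leaving out a library could not turn the direction. That no direction changed is therefore no further evidence. Among named exons that were not called, the difference of SF3B1 ran from -0.388 to 0.0147 points and that of the 58-nt exon of IFRD2 from -0.041 to 4.2 points when 1 library was left out, crossing 0 in both.

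No paired analysis was possible because the deposited lists carry no replicate numbers. A planned negative binomial test was not run. Depth limits rare and low-read exons most: 220 small exons had a mean of 20 to 25 reads.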
